A study of Homo sapiens with 18 samples.

Results

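Linker histone H1.5 was mapped by xChIP-seq in HL-60/S4, a human myeloid leukemia cell line that was used undifferentiated and untreated. The regions described here are the xChIP H1.5 peaks that shared no base with any peak of the other 3 lists of the study, those of xChIP H1.2, xxChIP H1.2 and xxChIP H1.5. They were chosen by the position of called peaks alone, from chromosomes 1 to 22 and X, among peaks shorter than 20 kb. There were 32735 such peaks among 138298 xChIP H1.5 peaks under 20 kb, or 23.7% (95% Wilson interval 23.4% to 23.9%), and 563676 peaks in the 4 lists on these chromosomes. They are called H1.5-only peaks below, and the other 105563 xChIP H1.5 peaks under 20 kb are called shared peaks. The study comprised 18 samples, of which 12 were immunoprecipitated, as triplicates of xChIP and xxChIP with either antibody, and 6 were Input.

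All cells were fixed with formaldehyde and permeabilized before either protocol began. In xChIP the chromatin was sonicated first, and the soluble fragments were then incubated with rabbit polyclonal antibody against H1.2 or H1.5. In xxChIP the antibody was bound to the intact permeabilized cells, which were fixed again before sonication. The epitopes are N-terminal, and the assay reads epitope exposed to antibody, not the protein as such. The authors merged the peaks of the 3 replicates into 1 list per protocol and antibody, and the lists carry no score. No spread between replicates and no test over samples could therefore be obtained, and the values below are descriptions. Absence from a list means that no peak was called there.

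Linker histones bind the nucleosome where DNA enters and leaves and help to compact the chromatin fiber. Human somatic cells express several H1 variants from separate genes, and H1.2 and H1.5 are widely expressed members of this family. Regions of low GC content in the human genome tend to be poor in genes and to lie in late-replicating, lamina-associated chromatin, whereas GC-rich regions hold most promoters and CpG islands.

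The central 200 bases of 4 H1.5-only peaks are shown as examples, with each CpG in capitals. They do not span the range of the set, whose GC content reached 77.2%. All are from the forward strand of hg19 and are written 5′ to 3′. The peak with the lowest GC content, 18.9%, lay outside annotated genes, and the nearest protein-coding TSS was that of ENAM, which encodes an enamel protein. Its window was chr4:71485837-71486036. The peak at the median GC content, 37.8%, lay in an intron of FOXP1, which encodes a forkhead transcription factor, with its window at chr3:71256868-71257067. The peak whose centre was closest to a protein-coding TSS, at 1 bp, was at MYH2, which encodes a myosin heavy chain of skeletal muscle, with its window at chr17:10452918-10453117. The longest peak in a gene of the lists described further below covered the olfactory receptor gene OR4K15, and its window at chr14:20441857-20442056 lay upstream of the gene.
lowest GC, near ENAM: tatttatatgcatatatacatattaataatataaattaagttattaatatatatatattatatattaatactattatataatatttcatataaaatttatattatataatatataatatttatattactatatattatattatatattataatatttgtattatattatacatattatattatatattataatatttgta
median GC, FOXP1: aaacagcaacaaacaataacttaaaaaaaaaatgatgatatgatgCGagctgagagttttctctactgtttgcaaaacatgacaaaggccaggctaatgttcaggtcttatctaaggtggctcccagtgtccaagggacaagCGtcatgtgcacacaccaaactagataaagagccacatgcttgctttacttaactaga
nearest TSS, MYH2: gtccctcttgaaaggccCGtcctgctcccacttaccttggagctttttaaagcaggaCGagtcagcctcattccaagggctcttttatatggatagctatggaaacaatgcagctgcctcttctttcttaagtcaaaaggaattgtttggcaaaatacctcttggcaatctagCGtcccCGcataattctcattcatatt
longest in a listed gene, OR4K15: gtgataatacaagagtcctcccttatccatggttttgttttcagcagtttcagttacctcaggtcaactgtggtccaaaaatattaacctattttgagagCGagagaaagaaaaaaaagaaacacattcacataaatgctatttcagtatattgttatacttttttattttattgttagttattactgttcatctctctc

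These 4 windows held 0, 2, 4 and 1 CpG in the order printed. The GC-poorest peak differed strongly in GC content from its flanks, which had 37.9% GC. In position it was only 31 bp from the nearest peak of another list. The FOXP1 peak, with 5011 bp, had 37.8% GC against 42.1% in its flanks. Flanks here are the sequences 5 to 10 kb away on either side.

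H1.5-only peaks were short. Their lengths ran up to 18213 bp with a median of 1667 bp (95% interval 1658 to 1675), and 64.8% were under 2 kb. Shared peaks had a median of 2296 bp. The share of xChIP H1.5 peaks that were H1.5-only was 33.9% among those of 1000 to 1500 bp, 24.2% at 2000 to 3000 bp, 5.22% at 5000 to 10000 bp and 0.657% from 10000 to 20000 bp. A long peak meets a neighboring peak more readily than a short one, so the rule that chose the regions touches their length. Only 29 of them reached 10 kb, and after the longest the next had 17382 bp. Only 1 peak of at least 20 kb shared no base with the other lists.

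**Figure D1:**
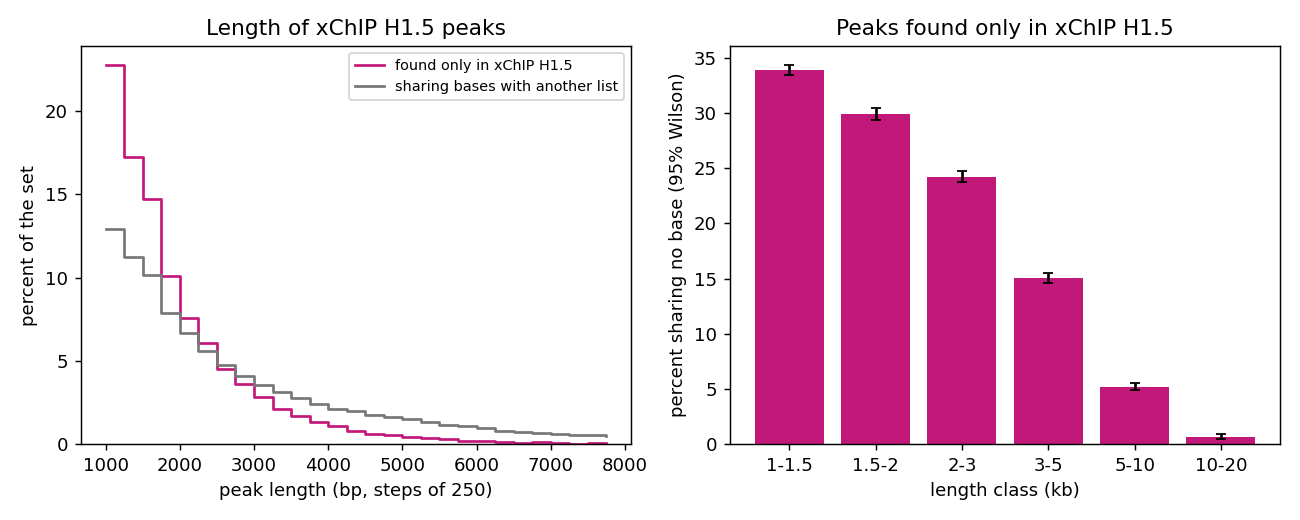
Left, lengths of H1.5-only and shared xChIP H1.5 peaks in steps of 250 bp, as percent of each set, drawn to 8000 bp. Right, percent of xChIP H1.5 peaks that were H1.5-only in 6 length classes with 95% Wilson intervals, from 33.9% in the shortest class to 0.657% in the longest.

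Most H1.5-only peaks stood close to a peak of another list without sharing a base with it. The median gap to the nearest peak of the other 3 lists was 1841 bp, with quartiles of 785 and 3668 bp. That nearest peak came from xChIP H1.2 in 39.9% of cases, from xxChIP H1.2 in 32.2% and from xxChIP H1.5 in 27.9%. These lists cover 26.4%, 20.2% and 17.2% of known sequence, in the same order. A gap under 1000 bp to another list was found for 31.1% of H1.5-only peaks. The share was 20.3% for peaks found only in xChIP H1.2, 13.9% for only xxChIP H1.2 and 14.8% for only xxChIP H1.5. At the edge of the rule, 9 peaks touched a neighbor end to end and 1102 had a gap under 100 bp, whereas 1118 shared peaks overlapped by fewer than 100 bp and 13 of them by 1 base. Among shared peaks 53.2% were covered over their whole length. At the other extreme, 911 H1.5-only peaks were at least 10 kb from any peak of the other lists. The next xChIP H1.5 peak of either kind was a median of 5855 bp away.

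In order along the chromosome, 50.9% of H1.5-only peaks had no H1.5-only peak next to them in the list, 28.0% stood in pairs and 12.2% in runs of 3. The longest run had 10 H1.5-only peaks in succession over 136 kb within CSMD1 on chromosome 8, a large gene for a protein with complement-control domains. There were 7 runs of 8. Of these, 1 spanned 125 kb at APPBP2 on chromosome 17, 1 spanned 110 kb at TRPC6, which encodes a cation channel, and 1 spanned 105 kb at SESN3, a stress-response gene. These runs were named after their lengths were seen.

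H1.5-only peaks were AT-rich. Their GC content was 38.8% ± 6.66 (SD, n = 32735), with a median of 37.8% (95% interval 37.7% to 37.9%) and a range from 30.0% to 51.1% between the 5th and 95th percentiles. Shared peaks had a median of 40.1%. Of the H1.5-only peaks 31.4% were below 35% GC, against 13.3% of shared peaks, and 6.23% were at or above 50%, against 7.26%. The known sequence of the genome has 40.9% GC. The rule confines H1.5-only peaks to sequence outside the other 3 lists, which is 51.7% of known sequence, and that sequence had 40.2% GC. The mean GC content of H1.5-only peaks was below the GC content of this outside sequence on 23 of 23 chromosomes. The mean difference was -1.37 points (SD over chromosomes 0.333).

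A difference was also present against nearby sequence. The GC content of the peaks minus that of their own flanks was -1.29 points on average, and 62.7% of H1.5-only peaks were below their flanks against 50.3% of shared peaks. The mean per chromosome was below 0 on 23 of 23 chromosomes, from -1.79 on chromosome 4 to -0.498 on chromosome 22. Shared peaks differed from their flanks by -0.109 points. The peaks found only in xChIP H1.2 went the other way, with 2.10 points more GC than their flanks, and so did those found only in xxChIP H1.2 at 0.577 points and only in xxChIP H1.5 at 1.26 points. H1.5-only peaks were the only set of these 4 with a mean below its flanks. Averaged around peak centres, their GC content was flat at 38.8% out to 500 bp, reached 40.3% at 2000 bp and was 40.3% at 4000 to 5000 bp. The other 3 sets had shoulders at 500 bp, for example 41.8% for peaks found only in xxChIP H1.5 against 40.1% within 200 bp of the centre. No such shoulder was seen around H1.5-only peaks. Flanks may contain peaks of the other lists while the peaks themselves may not, and the part of this asymmetry in the difference was not tested. The comparison above with the sequence outside the other 3 lists lacks the asymmetry. It pools sequence over whole chromosomes, however, and so cannot show whether the difference is local.

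**Figure D2:**
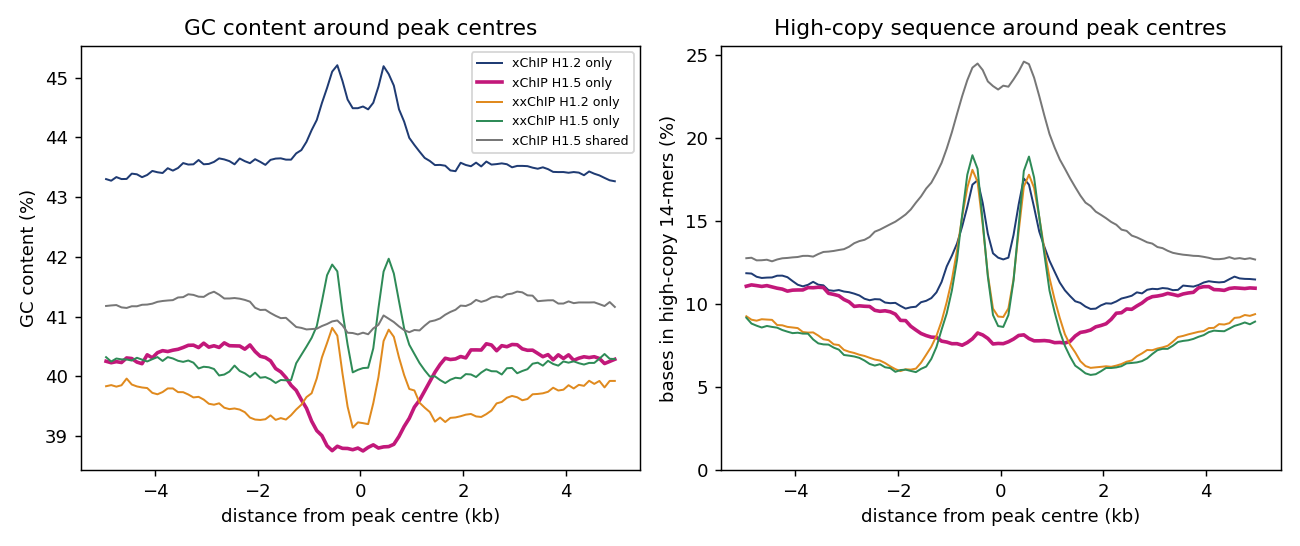
Mean GC content (left) and mean percent of bases in high-copy 14-mers (right) in 100-bp steps within 5 kb of peak centres for the peaks found in 1 list only and for shared xChIP H1.5 peaks. H1.5-only peaks form a trough in GC content, 38.8% near the centre and 40.3% at 2000 bp. Their high-copy share was 7.65% within 200 bp, 8.06% at 500 bp and 7.70% at 1000 bp, against 8.999%, 18.5% and 10.1% for peaks found only in xxChIP H1.5.

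Base steps changed accordingly. The dinucleotide TA made up 7.26% of steps in H1.5-only peaks, 6.81% in their flanks and 6.32% in shared peaks. AA/TT made up 21.0%, 20.1% and 19.8%. CG made up 0.834%, 0.919% and 1.03%. Corrected for base composition, the observed over expected CpG ratio was 0.223 in H1.5-only peaks, 0.244 in shared peaks and 0.236 in the genome. It was lower than in shared peaks on 22 of 23 chromosomes. Peaks found only in xxChIP H1.2 and only in xxChIP H1.5 had lower ratios still, 0.215 and 0.218. Those found only in xChIP H1.2 had 0.278.

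Sequence of high copy number was sparse in H1.5-only peaks. It was measured as the share of bases in any 14-mer present at least 10000 times on chromosomes 1 to 22 and X, which describes abundant interspersed and simple repeats without an annotation of them. The mean was 8.10% in H1.5-only peaks, 10.98% in their flanks, 24.3% in shared peaks and 12.1% in the genome. It was lower than in shared peaks on 23 of 23 chromosomes. In 23.6% of H1.5-only peaks no base was in such a 14-mer, against 5.49% of shared peaks, 19.2% of peaks found only in xChIP H1.2, 3.54% of peaks found only in xxChIP H1.2 and 3.62% of those found only in xxChIP H1.5. The sequence outside the other 3 lists was poorer still, at 5.88%, and H1.5-only peaks exceeded it on 23 of 23 chromosomes. The order therefore depends on the reference, being low beside other H1.5 peaks and high beside the sequence in which the rule allows them. The authors kept uniquely mappable reads, and the part of mappability in these values was not tested.

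Both orders held within classes of length. In each of 6 length classes the median GC content of H1.5-only peaks was below that of shared peaks, for example 37.9% against 40.5% at 1000 to 1500 bp and 36.9% against 40.3% at 5000 to 10000 bp. The high-copy share was lower in each class as well, at 8.55% against 24.6% in the shortest and 12.8% against 26.6% in the longest, which held 29 H1.5-only peaks.

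Shared peaks were themselves mixed, and they sorted by the list they met. Shared peaks that met both xxChIP lists but not xChIP H1.2 numbered 13773, with a median GC content of 36.5%, a difference of -1.46 points from their flanks and a high-copy share of 12.0%. Those that met only xxChIP H1.2 had 37.4%, -0.986 points and 11.8%, and those that met only xxChIP H1.5 had 38.5%, -0.699 points and 12.5%. Shared peaks that met only xChIP H1.2 numbered 34927 and had a median GC content of 43.0%, 0.577 points above their flanks, and a high-copy share of 29.3%. In gene context the order was different. The centre lay in a protein-coding gene for 49.3% of H1.5-only peaks, 34.5% of those meeting both xxChIP lists and 50.5% of those meeting only xChIP H1.2.

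H1.5-only peaks occurred in all parts of the genome and were denser where GC content was low. When 100-kb windows were divided into 5 equal classes, 23.8% of H1.5-only peaks lay in the GC-poorest and 14.8% in the GC-richest class. Per Mb of sequence outside the other 3 lists the density went from 25.5 in the poorest class to 23.3, 22.03, 20.6 and 19.6 in the richest. Peaks found only in xChIP H1.2 had the opposite distribution, with 9.78% in the poorest and 31.8% in the richest class. The sets found only in xxChIP leaned the same way as H1.5-only peaks. They had 21.1% in the poorest and 12.6% in the richest class for H1.2, and 19.9% and 15.0% for H1.5. The GC deficit against the flanks was present in every class, from -1.65 points in the poorest to -1.04 in the richest. The contrast with shared peaks did not hold throughout. In the richest class shared peaks differed from their flanks by -1.63 points, more than H1.5-only peaks, and the medians of GC content were 47.4% for H1.5-only and 47.2% for shared peaks.

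**Figure D3:**
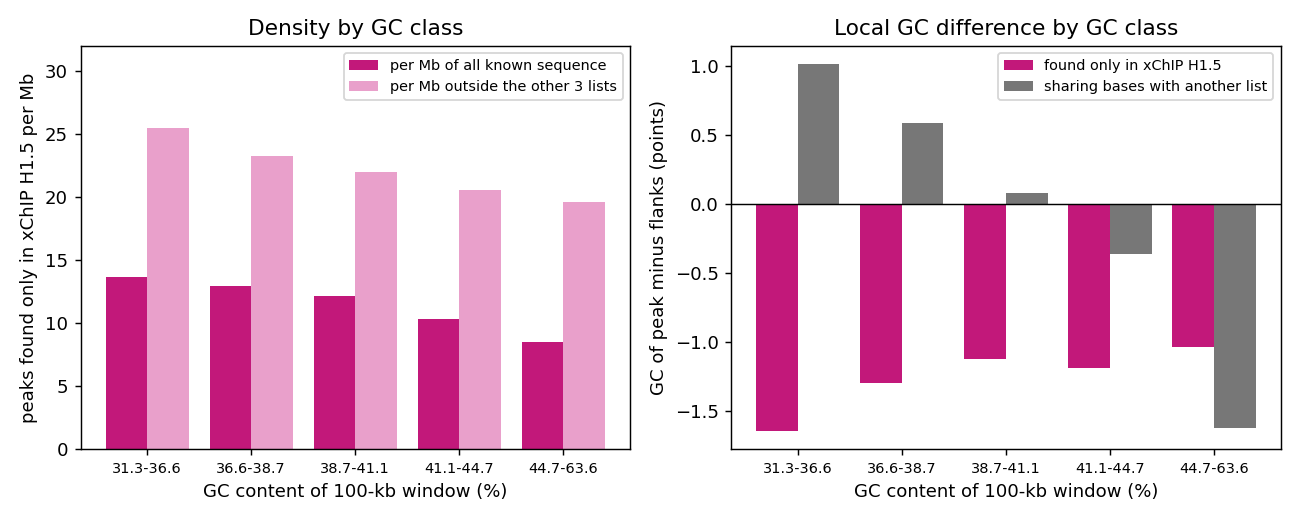
Left, H1.5-only peaks per Mb of known sequence and per Mb outside the other 3 lists in 5 classes of 100-kb windows ordered by GC content. Right, mean GC content of H1.5-only and shared peaks minus that of their flanks 5 to 10 kb away; the H1.5-only bars stay between -1.65 and -1.04 points while the shared bars run from 1.01 to -1.63.

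Among chromosomes, the H1.5-only share of xChIP H1.5 peaks was lowest on chromosome 22 at 17.0% (95% Wilson interval 15.4% to 18.7%) and highest on chromosome X at 35.1% (33.8% to 36.4%). Chromosome X also had few xChIP H1.5 peaks of any kind, 35.7 per Mb against a median of 51.1, and 66.4% of its known sequence was outside the other 3 lists. Per Mb of that sequence it had 18.9 H1.5-only peaks, below the median of 22.7 over chromosomes. The extremes on this scale were chromosome 16 with 16.9 and chromosome 13 with 25.1. The copy number of chromosomes in HL-60/S4 was not analysed here, and its part in these densities was not tested.

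**Figure D4:**
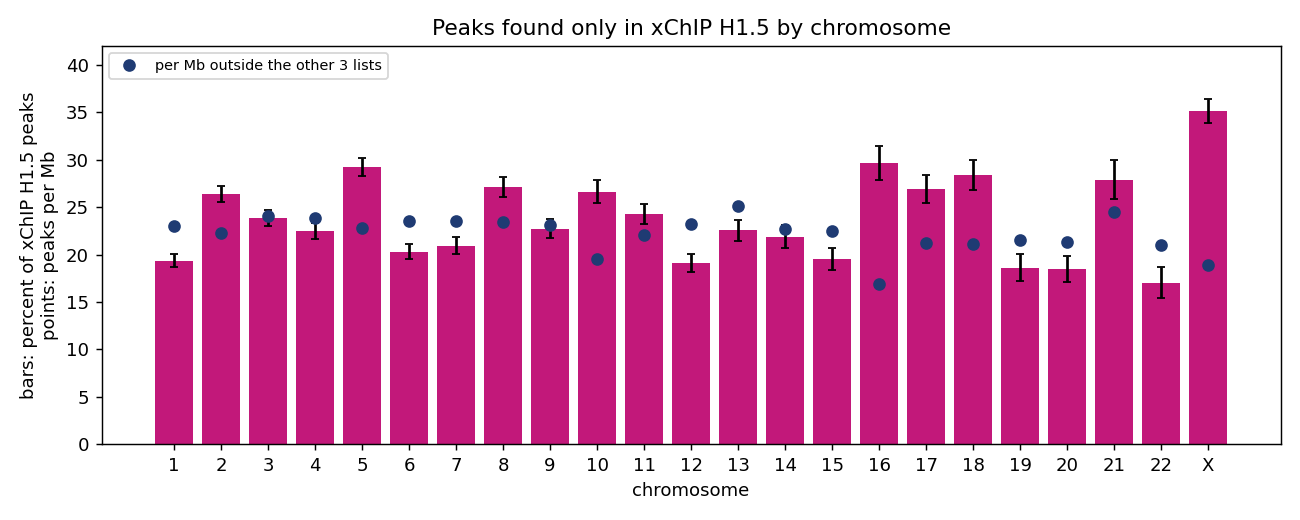
Bars, percent of xChIP H1.5 peaks under 20 kb that were H1.5-only on each chromosome with 95% Wilson intervals; points, H1.5-only peaks per Mb of sequence outside the other 3 lists. Chromosome X has the tallest bar, 35.1%, and a point of 18.9 per Mb, below most other chromosomes.

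In windows of 1 Mb the median was 11 H1.5-only peaks, with 6 and 17 as the 10 and 90 percentiles, and 15 of 2846 windows had none. The densest window, chosen after the counts were seen, held 29 on chromosome 7 from 114 to 115 Mb, where FOXP2, a forkhead transcription factor gene, and MDFIC lie. It had 35.7% GC and 31 shared peaks. The next held 26 and contained part of PRR16 on chromosome 5. In the outermost 2 Mb of the chromosomes there were 749 H1.5-only peaks, and they made up 18.6% of xChIP H1.5 peaks there. This came to 20.6 per Mb outside the other 3 lists, against 22.3 in all.

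Gene bodies held H1.5-only peaks in proportion to the sequence available. The centre was in a protein-coding gene for 49.3% of them (48.8% to 49.9%), and 48.2% of the sequence outside the other 3 lists is genic in this sense. The share was above that sequence on 13 chromosomes and below it on 10. Shared peaks had 43.9%, and H1.5-only peaks exceeded them on 23 of 23 chromosomes. Counting any shared base, 50.2% of H1.5-only peaks met a protein-coding gene. By centre, 4.55% were in an exon of such a gene, 44.8% in an intron, 15.97% in other genes only and 34.7% outside genes.

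Exons stood out against shared peaks but not against the accessible sequence. The centre was in a protein-coding exon for 4.55% of H1.5-only peaks (4.33% to 4.78%) and for 2.24% of shared peaks (2.15% to 2.33%), with H1.5-only peaks higher on 23 of 23 chromosomes. Exons took up 4.77% of the sequence outside the other lists. The exonic H1.5-only peaks were not GC-rich. Their median GC content was 38.6%, with a difference of -1.57 points from their flanks on average, against 43.8% for exonic shared peaks. Within genes of at least 50 kb, of which there were 6778, H1.5-only peaks were spread evenly from start to end, with 12.6 per Mb in the 10% of length next to the TSS and 13.8 in the 10% at the far end. Per Mb outside the other lists the corresponding values were 23.2 and 22.8. Shared peaks went from 35.5 to 30.0 per Mb.

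Promoters and CpG islands were seldom reached. A window of 1000 bp on either side of a protein-coding TSS was met by 756 H1.5-only peaks, or 2.31% (2.15% to 2.48%). The share was 2.62% for shared peaks, 5.11% for peaks found only in xChIP H1.2 and 1.04% and 1.1975% for those found only in the xxChIP lists of H1.2 and H1.5. Shared peaks are longer and so reach more windows. By centre the order turned, with 0.956% of H1.5-only and 0.731% of shared peaks, and both were below the 1.45% of sequence outside the other 3 lists that such windows take up. CpG islands were met by 3.07% of H1.5-only and 5.48% of shared peaks, and by centre 0.929% and 1.03% lay in an island, with overlapping intervals, beside 1.63% of the sequence outside the other 3 lists. The median distance from the centre to a protein-coding TSS was 93.2 kb for H1.5-only and 72.7 kb for shared peaks. The H1.5-only peaks at promoters differed from the rest in composition. Their median GC content was 43.7%, and they lay 1.72 points above their flanks. Shared peaks at promoters did likewise, with a median of 47.2% and 1.17 points above their flanks.

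The annotation contained 20098 protein-coding genes, of which 7065 (35.2%) shared at least 1 base with an H1.5-only peak. Of their promoters 834 (4.15%) were met, 299 had the TSS inside the peak and 72 had the whole window inside it. The first count went with gene length. An H1.5-only peak was present in 6.78% of genes under 10 kb, 52.7% of those of 50 to 100 kb and 323 of 323 genes of at least 500 kb. The density stayed between 11.6 and 15.1 per Mb across these length classes. Promoters were met at 3.61% to 4.94% in each length class.

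The genes with the most H1.5-only peaks were all very long. CSMD1 had 44 over 2060 kb, beside 54 shared peaks. DMD, which encodes the muscle protein dystrophin, had 38, and PDE4D, a cAMP phosphodiesterase gene, had 36. LRP1B, a gene of the LDL receptor family, and PTPRD, a receptor tyrosine phosphatase gene, had 32 each. Those 5 were followed by RBFOX1, a regulator of splicing in neurons, with 31. RBMS3, an RNA-binding protein gene, and DLG2, a synaptic scaffold gene, had 29 each. MACROD2, whose product removes ADP-ribose, had 28 and EYS, needed in photoreceptors, had 27. SGCZ, a sarcoglycan gene, the unnamed gene model ENSG00000283563, which overlaps RBMS3, and ROBO2, an axon guidance receptor gene, had 26 each. TBC1D5, an endosomal trafficking gene, and NRXN3, a neurexin gene, had 25 each. Coverage remained low even there, at 3.67% of CSMD1 and 5.03% of SGCZ. The counts mixed high and low densities, since PDE4D and SGCZ had 23.2 and 22.5 per Mb but RBFOX1 had 12.5.

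Ranked by density among genes of at least 50 kb, a different group led. SYNJ2BP, which encodes a mitochondrial outer membrane protein, had 5 H1.5-only peaks in 50.6 kb and no shared peak. The overlapping gene models COX16, for a cytochrome oxidase assembly factor, and SYNJ2BP-COX16 had 7 each and share peaks with it. GNAI3, an inhibitory G protein subunit gene, had 5 beside 2 shared peaks. APPBP2 had 7 beside 1, covering 22.7% of the gene. GABRA4, a GABA receptor subunit gene, and TPST2, a tyrosine sulfotransferase gene, had 6 each. FERMT2, a kindlin gene, had 7. AK4, a mitochondrial adenylate kinase gene, had 6. LCP1, which encodes the actin-bundling protein L-plastin of leukocytes, had 6 beside 2 shared peaks. In LCP1 and TPST2 a peak met the promoter window as well, over 32.8% and 65.1% of it.

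APPBP2 shows how the 4 lists interleave. The gene is 83.1 kb long and lies on the reverse strand of chromosome 17. The xChIP H1.5 list had 8 peaks in it, of which 7 were H1.5-only, and covered 27.5% of the gene. The xChIP H1.2 list had 3 peaks and covered 4.71%, xxChIP H1.2 had 4 and covered 10.4%, and xxChIP H1.5 had 4 and covered 8.06%. From 38.2 to 52.7 kb downstream of the TSS, 3 H1.5-only peaks followed each other with short gaps, and no other list had a peak between 29.0 and 54.1 kb.

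**Figure D5:**
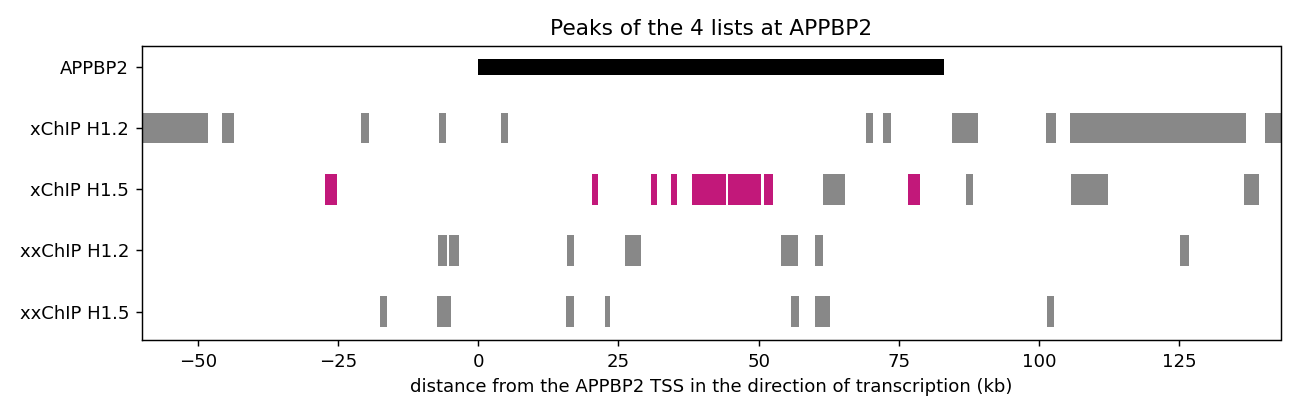
Peaks of the 4 lists in APPBP2 and 60 kb on either side, against the distance from its TSS in the direction of transcription; H1.5-only peaks are magenta and all other peaks gray. Of 8 xChIP H1.5 peaks in the gene 7 are H1.5-only, and 3 of these lie side by side from 38.2 to 52.7 kb.

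Promoter windows wholly inside an H1.5-only peak were led by VOPP1, whose TSS lay in a peak of 16988 bp. REC8, the gene for a cohesin subunit of meiosis, had a peak of 9910 bp over its TSS and 61.8% of its body. QSER1 had a peak of 9286 bp. The neighboring olfactory receptor genes OR4K15 and OR4K14 on chromosome 14 were each enclosed by a peak, of 8570 and 8030 bp. COX5B, a cytochrome oxidase subunit gene, was enclosed by a peak of 6129 bp. PLAAT4, a retinoid-inducible gene, had a peak of 5781 bp over its TSS. P3R3URF and P3R3URF-PIK3R3 share a start and the same peak of 5543 bp.

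Gene groups chosen for the cell type and for chromatin were examined next, against the 35.2% of genes and 4.15% of promoters met in all. Because the share of genes met goes with gene length, the class of similar length is the closer comparison. That share was 6.78% under 10 kb, 24.1% at 10 to 50 kb and 52.7% at 50 to 100 kb. None of 10 genes for azurophil granule proteins, such as the neutrophil enzymes MPO and ELANE, had an H1.5-only peak, and none of 10 linker histone H1 genes did. These genes are short, with medians of 5.54 and 0.792 kb, and a count of 0 in 10 allows a share of up to 30% when the limit is set at 3 counts (95% Wilson upper limit 27.8%). Genes for myeloid transcription factors had a median length of 18.7 kb. Of 12 such genes 3 had an H1.5-only peak, namely RUNX1 with 14, FLI1 with 2 and ERG with 2. These 3 are long, at 1217, 127 and 282 kb in that order. Of all genes of 100 to 200 kb 77.2% were met, and of those of 200 to 500 kb 96.1%. RUNX1 had 11.5 per Mb, beside 13.1 for genes of at least 500 kb. No promoter of the 12 was met. SPI1, which encodes PU.1, had none. Among 6 NADPH oxidase subunit genes, with a median length of 25.2 kb, NCF4 had 1, which met 6.10% of its promoter window.

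Genes for lamins and nuclear envelope proteins had a median length of 59.0 kb. Of 12 such genes 5 had an H1.5-only peak, and 52.7% of all protein-coding genes of 50 to 100 kb were met. LBR, whose product tethers heterochromatin to the inner nuclear membrane, had 3 in 27.4 kb and no shared peak, and 1 of them, of 4103 bp, covered 70.5% of its promoter window. SYNE1 had 4, and LMNA, SYNE2 and SUN2 had 1 each. Among 10 genes for cohesin, its regulators and CTCF, 8 were met, with STAG2 at 6 and NIPBL and PDS5B at 4 each. The PDS5B promoter was met over 5.85%. This group has a median length of 121 kb, and 77.2% of all protein-coding genes of 100 to 200 kb were met. CTCF itself had none.

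Families in clusters gave mixed counts. Of 412 olfactory receptor genes 39 (9.47%) had an H1.5-only peak and 25 promoters (6.07%) were met, beside 6.78% and 3.61% of all genes under 10 kb. OR4K15, OR4K14 and OR5AU1 had the whole promoter window covered. Of 508 zinc finger genes 151 (29.7%) had one and 28 promoters (5.51%) were met, most fully at ZNF195 and ZNF747 with 100% and ZNF827 with 92.0%. The median length of zinc finger genes was 26.2 kb, and 24.1% of all genes of 10 to 50 kb were met. Of 58 core histone genes 7 (12.1%, Wilson interval 5.97% to 22.9%) had an H1.5-only peak. The median length of core histone genes was 0.4995 kb. Of all genes under 10 kb 6.78% were met, a share within that interval. The core histone genes met ran from 0.412 kb at H4C5 to 29.7 kb at H2BC18, so no single length class covers them. Of core histone promoters 6 (10.3%) were met, beside 3.61% for all genes under 10 kb. All 6 were in the histone clusters of chromosome 6. The covered part of the window was 93.3% at H3C10, 59.0% at H3C3 and 57.4% at H4C5, each with the TSS inside. It was 24.8% at H2BC15, 19.2% at H4C9 and 16.3% at H2AC15, and H2BC15 and H2AC15 were met by the same peak.

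Keratin and keratin-associated protein genes had a median length of 1.16 kb. Of 149 such genes 6 (4.03%) had an H1.5-only peak, beside 6.78% of all genes under 10 kb. The promoters of KRTAP1-1 and KRTAP11-1 were met over 54.4% and 4.15%. Of 53 clustered protocadherin genes 32 (60.4%) had one, but their gene models overlap and count the same peaks repeatedly. Their median length was 110 kb, and 77.2% of all genes of 100 to 200 kb were met. In promoters the order was reversed, with 4 (7.55%) met beside 4.21% of that class. Promoters were met at PCDHGA4 over 73.5%, PCDHA5 over 41.8%, PCDHB10 over 16.5% and PCDHGB7 over 15.7%. Of 80 genes for cytosolic ribosomal proteins 4 had one in the gene, and 3 promoters were met, those of RPS7 over 34.1%, RPL37A over 25.7% and RPS19 over 15.6%. Of 39 HOX genes 11 had one, HOXB3 with 3 and HOXC4 with 2 among them, and no HOX promoter was met. Several HOX gene models overlap as well. The shares were 5.00% of ribosomal protein genes and 28.2% of HOX genes, whose median lengths were 5.60 and 4.22 kb. Of all genes under 10 kb 6.78% were met, and of those of 10 to 50 kb 24.1%. The HOX genes met ran from 2.84 kb at HOXB4 to 56.0 kb at HOXB3, so no single length class covers them.

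Short motifs of factors with a role in myeloid cells or in chromatin folding were counted on both strands in the central 1000 bp of each peak and in all 1000-bp tiles of known sequence. A match is a run of letters and not a bound site. GAGGAAG, the core bound by PU.1, was in 22.1% of H1.5-only peaks, 22.1% of shared peaks and 23.3% of tiles. CCGGAAG, bound by GABPA, was in 1.86%, 1.93% and 2.33%. GTGGGCG, bound by EGR1, was in 3.24% of H1.5-only peaks, below the 6.27% of shared peaks and the 4.86% of tiles. The CTCF core was in 0.858% of H1.5-only peaks, 0.646% of shared peaks, 1.31% of peaks found only in xChIP H1.2 and 0.834% of tiles. A run of 8 A on either strand was in 43.6% of H1.5-only peaks, 50.9% of shared peaks and 44.9% of tiles, so that the AT-richness of H1.5-only peaks did not go with more such runs. A CA repeat of 8 bases was in 12.8%, 11.7% and 13.2%.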

How the data were processed

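The 4 peak lists deposited by the authors (both antibodies, both protocols) were used. For these, paired reads had been aligned by the authors with Bowtie2 to hg19, keeping those that mapped uniquely, and peaks were called with MUSIC and merged over 3 replicates. The deposited columns are chromosome, start and end, with no score, so sequencing depth and support by replicates are unknown, and merging can lengthen peaks. Samples were grouped by the protocol and antibody in their titles. The 6 Input samples were not used.

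Starts were converted to 1-based coordinates. Sequence was read from GRCh37 and genes from GENCODE 44 lifted to it. GC content excluded unknown bases. CpG islands were merged 500-bp windows with at least 55% GC and an observed over expected ratio of at least 0.65. Windows of 100 kb needed 50% known sequence. The measure of 14-mers with at least 10000 copies was chosen after the files were seen, because the genome used was not repeat-masked.

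Shares carry 95% Wilson intervals, medians carry binomial intervals, and both cover counting error only. Neighboring peaks are not independent, so these intervals are too narrow as errors of a biological repeat. Values were recomputed on 23 chromosomes and in classes of length and GC content. Named genes were the 15 with the most H1.5-only peaks, the 10 of at least 50 kb with the highest density, the 10 with the most fully covered promoter and, in each list, those with a covered promoter, or the 3 most covered where there were more than 10. Other genes of the lists were named after their values were seen. Some genes and sequences that meet these rules are not reported here. The members and lists were chosen with earlier results of these data known. Overlap and gap counting was tested on 4000 simulated intervals against counting base by base, with 0 wrong. Python 3.11.15, numpy 2.4.6, pandas 2.3.3, scipy 1.17.1, numba 0.67.0 and matplotlib 3.10.9 were used.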

Additional observations from a re-analysis of the deposited data

How the results depend on the processing

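GC minus flank, which alone among these values could change sign, stayed negative under each alternative, and 37 of 71 recomputed values stayed within the interval of the reported one or within 1 SD over chromosomes. That count includes settings that could hardly change a value. Requiring peaks of at least 1000 bp kept all 32735 H1.5-only peaks, and dropping the upper length limit gave 32736. The count is therefore no measure of robustness. When a peak counted as H1.5-only with under 50% of its length covered by the other lists, the H1.5-only share was 36.2%, the median length 1881.5 bp, the median GC content 38.1%, the share meeting protein-coding genes 49.5%, the CpG island share 3.44% and the share in the GC-poorest windows 23.1%. When its centre had to lie in no other peak, these were 36.1%, 1874 bp, 38.2%, 49.3%, 3.52% and 22.99%. With a gap of at least 1000 bp, the H1.5-only share was 16.3%, the median GC content 38.2%, GC minus flank -0.947 points, the gene share 50.9% and the island share 3.31%. With only xChIP H1.2 used to exclude, the H1.5-only share was 46.8%, the median length 1748 bp, the median GC content 37.5%, the gene share 44.8%, the promoter share 1.61%, the island share 2.07% and the share in GC-poorest windows 27.3%. Without the upper length limit the H1.5-only share was 23.4%. Flanks of 1 to 2 kb gave a GC difference of -1.79 points. With all annotated genes the gene share was 67.1% and the promoter share 7.18%, and by peak centre the gene share was 49.3%. Promoter windows of 500 and 2500 bp gave 1.48% and 4.45%. Islands with at least 50% GC and a ratio of 0.6 gave 6.01%. Windows of 1 Mb put 23.2% in the GC-poorest class. Counting 14-mers of at least 1000 copies, chosen after seeing the data, gave a high-copy share of 16.9% in H1.5-only and 41.1% in shared peaks.

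No paired analysis was possible because the authors merged the 3 replicates of each combination into 1 list. Leaving out a replicate and applying a stricter peak threshold were not run, since the lists hold neither replicates nor scores. The depth behind each peak is unknown.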
